A study of Mus musculus with 57 samples.

Results

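The genes described here are 6 genes of red blood cells measured in mouse hearts: the alpha-globin genes Hba-a1 and Hba-a2, the beta-globin genes Hbb-bs and Hbb-bt, Alas2 and Slc4a1. They were taken by symbol, 6 of the 25416 genes of the acute count table and 6 of the 54658 genes of the chronic count table. They had been picked because of their levels in the 3 acute groups. For that reason their acute values and fold changes are given below as a description, without a p-value, and tests are given for the chronic hearts and for other genes of red cells.

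The hearts came from wild type (WT) male C57BL6/J mice and were sequenced as poly(A) RNA. In the acute study, mice were bought at 9 weeks of age, and a single i.p. dose of doxorubicin (20 mg/kg) or saline was given. Doxo-NMN mice also received nicotinamide mononucleotide (NMN, a precursor of NAD+) i.p. at 180 mg/kg/day from 5 days before that dose until collection. Hearts were taken at day 5 from 14 Ctrl, 13 Doxo and 13 Doxo-NMN mice. In the chronic study, mice of 14 to 16 weeks received 5 i.p. doxorubicin injections of 4 mg/kg (20 mg/kg in all) or vehicle. The Doxo-NMN group also drank NMN in its water at 500 mg/kg/day, from 5 days before the first injection and for 60 days more. Hearts were taken at day 60 from 5 Ctrl, 6 Doxo and 6 Doxo-NMN mice. Doxorubicin is an anthracycline used against cancer and is toxic to the heart. No group received NMN without doxorubicin, and only mice alive on the day of collection gave a heart. The sequencing provider differed between the studies, so provider and study cannot be told apart, and levels set side by side across studies come from separately processed tables.

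Haemoglobin, the oxygen carrier of blood, is built from alpha- and beta-globin chains that each hold a haem group. In adult mice red cells are made in bone marrow and spleen. They lose their nucleus before they circulate, and young red cells (reticulocytes) still carry globin mRNA, which is lost as they mature. Alas2 is the erythroid form of 5-aminolevulinate synthase, the enzyme that begins haem synthesis. Slc4a1 encodes band 3, the chloride-bicarbonate exchanger that anchors the red cell membrane skeleton. In RNA from heart tissue, these transcripts can come with the blood held in it, and their source was not tested here. Fewer red cells in a heart and less RNA per red cell cannot be told apart in such samples.

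By the GENCODE annotation of the mouse build GRCm38 (mm10), Hba-a1 (ENSMUSG00000069919, chr11:32283511-32284465, plus strand) and Hba-a2 (ENSMUSG00000069917, chr11:32296489-32297298, plus strand) are neighbouring copies with 3 exons each. Hbb-bs (ENSMUSG00000052305, chr7:103826534-103828096, minus strand) and Hbb-bt (ENSMUSG00000073940, chr7:103812524-103813996, minus strand) are the adult beta-globin copies, also with 3 exons each. Alas2 (ENSMUSG00000025270, chrX:150547375-150570638, plus strand) and Slc4a1 (ENSMUSG00000006574, chr11:102348824-102366203, minus strand) have up to 11 and 20 exons in a transcript. The globin copies share sequence. Of the 150-base reads that could start in the main Hba-a1 transcript, 48.4% occur unchanged in that of Hba-a2, and 65.7% the other way round. For Hbb-bs and Hbb-bt the shares were 58.7% and 50.7%. How reads that fit both copies were counted is not given in the sources used here, so the split between copies is uncertain, while the sum of a pair depends less on it.

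The promoters of these genes are shown as background. Whether their motifs bear on how the members varied from heart to heart was not tested. The 250 bases before each transcription start are printed from RefSeq (GRCm38.p6) for the 4 promoters that differ. Capitals mark matches on either strand to the motif AGATAA and its shifted form GATAAG (both are letters that GATA factors bind, and they overlap in AGATAAG). They also mark CACCC (bound by Klf1 and related factors), the motif CCAAT (an element of many promoters) and, as the form of the box found near many transcription starts, ATATAA. They are at chr11:32283422-32283671 (Hba-a1), chr7:103827929-103828178 (Hbb-bs), chr7:103813924-103814173 (Hbb-bt) and chrX:150547167-150547416 (Alas2), each written on its gene's strand.
Hba-a1: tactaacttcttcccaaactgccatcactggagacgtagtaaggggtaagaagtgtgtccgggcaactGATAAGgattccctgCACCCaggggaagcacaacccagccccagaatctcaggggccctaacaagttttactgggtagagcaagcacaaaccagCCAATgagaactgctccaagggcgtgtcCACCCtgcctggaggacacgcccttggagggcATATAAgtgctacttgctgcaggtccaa
Hbb-bs: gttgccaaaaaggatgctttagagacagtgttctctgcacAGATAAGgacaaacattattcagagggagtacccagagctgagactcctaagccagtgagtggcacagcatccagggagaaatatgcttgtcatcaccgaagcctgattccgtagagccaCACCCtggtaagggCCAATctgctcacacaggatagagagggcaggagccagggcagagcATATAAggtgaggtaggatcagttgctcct
Hbb-bt: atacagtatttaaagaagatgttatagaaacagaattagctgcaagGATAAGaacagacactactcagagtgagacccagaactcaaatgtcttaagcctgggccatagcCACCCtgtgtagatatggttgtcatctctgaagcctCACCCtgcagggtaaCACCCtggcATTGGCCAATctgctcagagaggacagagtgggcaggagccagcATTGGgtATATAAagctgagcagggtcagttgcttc
Alas2: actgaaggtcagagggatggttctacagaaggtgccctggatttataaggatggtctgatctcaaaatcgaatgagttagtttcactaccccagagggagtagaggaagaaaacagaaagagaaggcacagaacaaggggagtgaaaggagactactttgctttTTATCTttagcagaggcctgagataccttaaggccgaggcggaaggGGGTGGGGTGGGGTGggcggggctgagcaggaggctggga

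The Hba-a2 window shares an unbroken run of 247 of its 250 bases with that of Hba-a1 and is not printed again, whereas the longest run shared by the Hbb-bs and Hbb-bt windows is 14 bases. All 4 globin windows hold at least 1 match each to GATAAG and to the other 3 motifs that follow it in the list above. The ATATAA match begins at -28 in Hba-a1, -30 in Hbb-bs and -29 in Hbb-bt, counted from the RefSeq start. GATAAG alone occurred in 6.55% of the 32851 RefSeq windows of this length, AGATAA in 9.99%, CACCC in 52%, CCAAT in 33.8% and ATATAA in 9.10%. These globin motifs (GATAAG with CACCC, with CCAAT and with ATATAA) occurred together in 46 windows (0.140%). That combination was chosen knowing the globin promoters. Alas2 has AGATAA on the opposite strand (read as TTATCT, at -86 to -81) and 3 CACCC matches on the opposite strand between -40 and -26, while CCAAT was not found in this window, nor was ATATAA. Slc4a1 was not searched. A match is a string of letters and does not show that a factor is bound.

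Total counts ran from 32409622 to 52102850 in acute hearts and from 17769886 to 23862287 in chronic hearts. Levels below are given in CPM, a gene's counts relative to its library's total scaled by edgeR's TMM factors. In acute hearts a median of 73.6% of the gene values between 1 and 20 counts were even, against 40.3% in chronic hearts. The cause of this was not tested. Intervals cover the spread between hearts as the model estimates it, and limits from a count of 0 cover counting error only. The labels do not say whether littermates were used, so the spread is that between these mice.

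The library labelled Doxo replicate 6 of the acute study stood apart from the other 12 Doxo hearts also without the red cell genes. On an axis through all tested genes that runs from 0 at the Ctrl mean to 1 at the Doxo mean, it lay at 0.0177, whereas the other Doxo hearts lay between 0.378 and 1.49 and the Ctrl hearts between -0.0441 and 0.10. Each heart was left out of the means it was set against, and the red cell genes were left out. It also held the highest level of every member in its group. Why it stands apart was not tested, and it was kept under its label. Acute Doxo levels and fold changes of the members are given with and without it, and those of other genes where they are described.

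The 4 globin genes were among the well detected transcripts of acute Ctrl hearts and were close to absent from acute Doxo and Doxo-NMN hearts. Hbb-bs had a lowest, median and highest level of 208, 540 and 2052 CPM in the 14 Ctrl hearts (8542 to 90132 counts). In the 13 Doxo hearts it had 0.271, 0.694 and 159 CPM, the highest being the library labelled Doxo replicate 6 with 6395 counts, and the other 12 hearts held 11 to 51 counts and at most 1.38 CPM. In the 13 Doxo-NMN hearts it had 0, 0.465 and 1.08 CPM (0 to 42 counts, with 2 hearts at 0). No Doxo or Doxo-NMN heart reached the lowest Ctrl heart. The ratio of the Ctrl median to the Doxo median was 778, and that to the Doxo-NMN median 1161. A count of 0 allows up to 3 counts in a library, which was 0.0576 to 0.0926 CPM in the acute libraries.

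Hba-a1, the more abundant alpha-globin copy, had 118, 305 and 1207 CPM in Ctrl hearts as the lowest, median and highest level. Its Doxo hearts held 0.347, 0.568 and 93.8 CPM, or at most 1.13 CPM without the library labelled Doxo replicate 6. Its Doxo-NMN hearts held 0.0380, 0.309 and 1.16 CPM. The order of the groups was thus the same as for Hbb-bs, and Doxo and Doxo-NMN hearts overlapped. Hba-a2, its neighbouring copy, went from 40.3, 106 and 398 CPM in Ctrl hearts to 0.0493, 0.238 and 33.1 CPM in Doxo hearts (at most 0.398 CPM without that library). It was at 0, 0.0753 and 0.331 CPM in Doxo-NMN hearts. Hbb-bt, the second adult beta-globin, went from 57.1, 140 and 543 CPM in Ctrl to 0.0328, 0.222 and 43.3 CPM in Doxo (at most 0.420 CPM without that library). It was at 0, 0.112 and 0.305 CPM in Doxo-NMN, where 3 hearts held no count. Ctrl medians were 538 times (Hba-a1), 447 times (Hba-a2) and 629 times (Hbb-bt) the Doxo medians.

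Alas2, the erythroid haem synthesis enzyme, had a smaller ratio between groups than the globins. It had 11.9, 27.2 and 111 CPM in Ctrl hearts, 0.0795, 0.471 and 8.67 CPM in Doxo hearts (at most 1.04 CPM without that library) and 0.0888, 0.297 and 0.432 CPM in Doxo-NMN hearts. All 13 Doxo-NMN hearts lay below the Doxo median for Alas2, while both groups overlapped. The Ctrl median was 57.8 times the Doxo median and 91.6 times the Doxo-NMN median. Slc4a1, the band 3 anion exchanger, was the scarcest member. Its Ctrl hearts held 12 to 268 counts each (0.307, 1.66 and 6.76 CPM), 1210 counts in all. The Doxo hearts held 29 counts together, of which 18 were in the library labelled Doxo replicate 6, and 8 hearts held none. The Doxo-NMN hearts held 8 counts, 4 in each of 2 hearts, and 11 held none. Only for Slc4a1 did the library labelled Doxo replicate 6 lie within the Ctrl range, at 0.449 CPM.

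**Figure D1:**
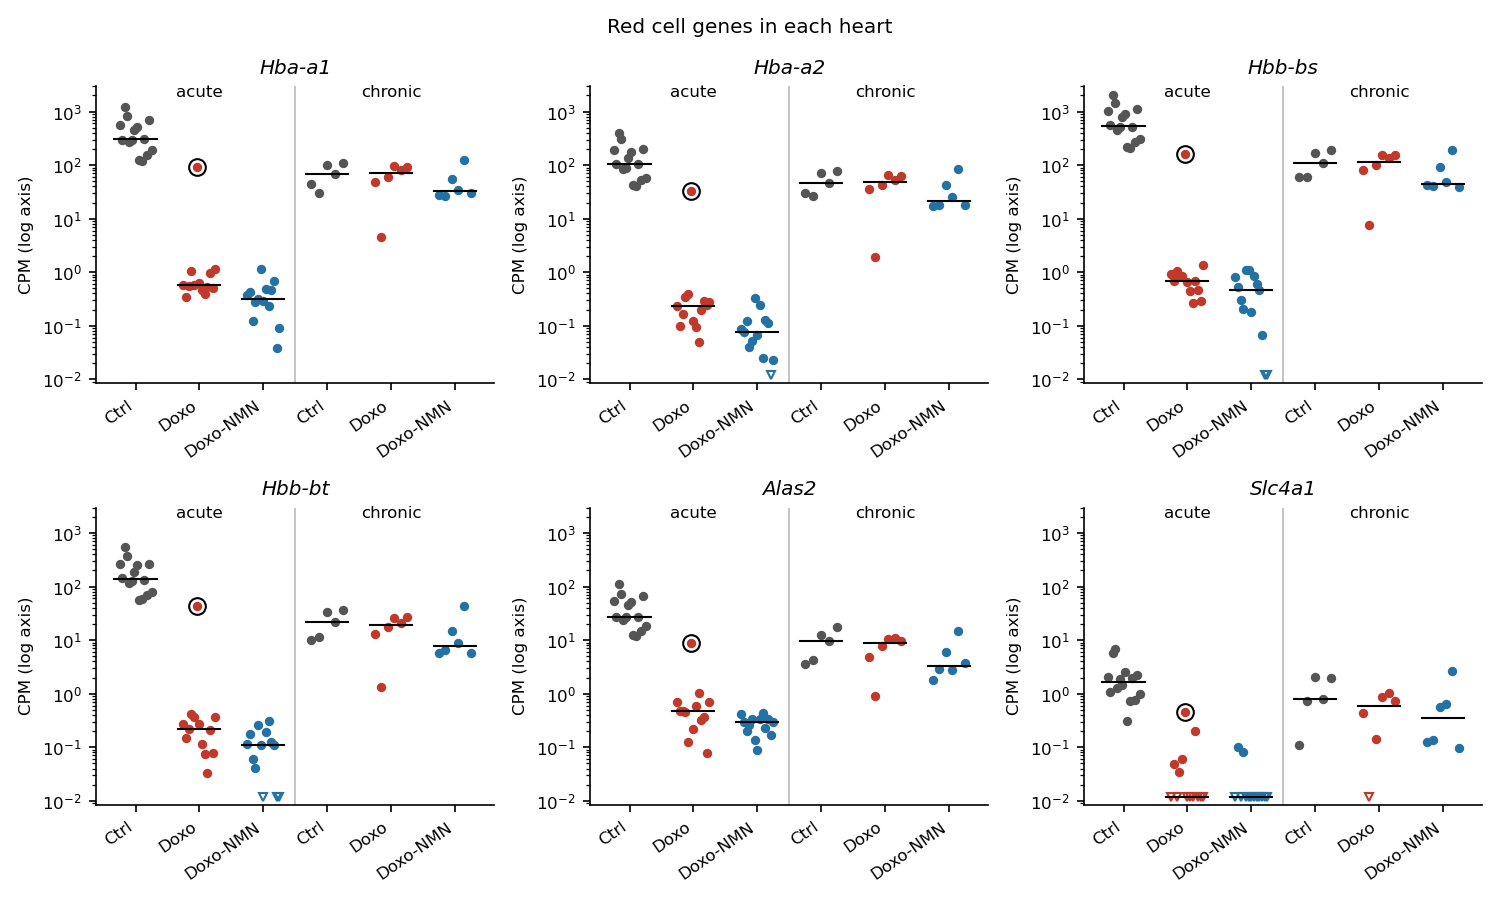
Level of each of the 6 genes in every heart, in CPM on a log axis, for the Ctrl, Doxo and Doxo-NMN groups of the acute and chronic studies. Points are hearts, black lines are group medians, open triangles at the bottom are hearts with no count and the ringed point is the library labelled Doxo replicate 6. Acute Ctrl medians lie far above acute Doxo and Doxo-NMN medians for each gene (Hbb-bs 540, 0.694 and 0.465 CPM), the ringed library lies just below the Ctrl hearts or, for Slc4a1, among them, and the chronic groups overlap.

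In the edgeR fit the acute log2 fold changes of Doxo vs. Ctrl were -5.78 (SE 0.83) for Hba-a1, -5.67 (SE 0.75) for Hba-a2, -5.84 for Hbb-bs, -5.75 for Hbb-bt, -5.17 for Alas2 and -5.09 for Slc4a1. Without the library labelled Doxo replicate 6 they were -9.40 (SE 0.44), -9.41 (SE 0.43), -10.02 (SE 0.51), -9.80 (SE 0.44), -6.40 (SE 0.37) and -6.26 (SE 0.61) in the same order. One library of 13 thus set the fitted size, and the direction was the same with and without it. By the call rule used for the acute study (adjusted p under 0.05 and at least 1.5-fold), 6 of 6 members were lower, where 15.4% of the 14240 tested genes were lower. Since the members had been picked on this contrast, nothing is read from that count.

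Doxo-NMN vs. Ctrl gave log2 fold changes of -10.17, -10.47, -10.65, -10.74, -7.20 and -6.95, and the 6 members were all lower by the same rule, against 3.79% of tested genes. Doxo-NMN vs. Doxo depended on 1 library. With all hearts the differences were -4.39, -4.81, -4.82, -4.99, -2.03 and -1.85 on the log2 scale and 5 of 6 members were lower by the rule, against 8.88% of genes. Without the library labelled Doxo replicate 6 they were -0.77 (95% confidence interval -1.66 to 0.12), -1.06 (-2.42 to 0.30), -0.64 (-1.59 to 0.31), -0.94 (-2.27 to 0.39), -0.79 (-1.67 to 0.09) and -0.69 (-2.63 to 1.26), and 0 of 6 were called. Since these groups were used to pick the members, the counts and intervals are a description and nothing is read from them.

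**Figure D2:**
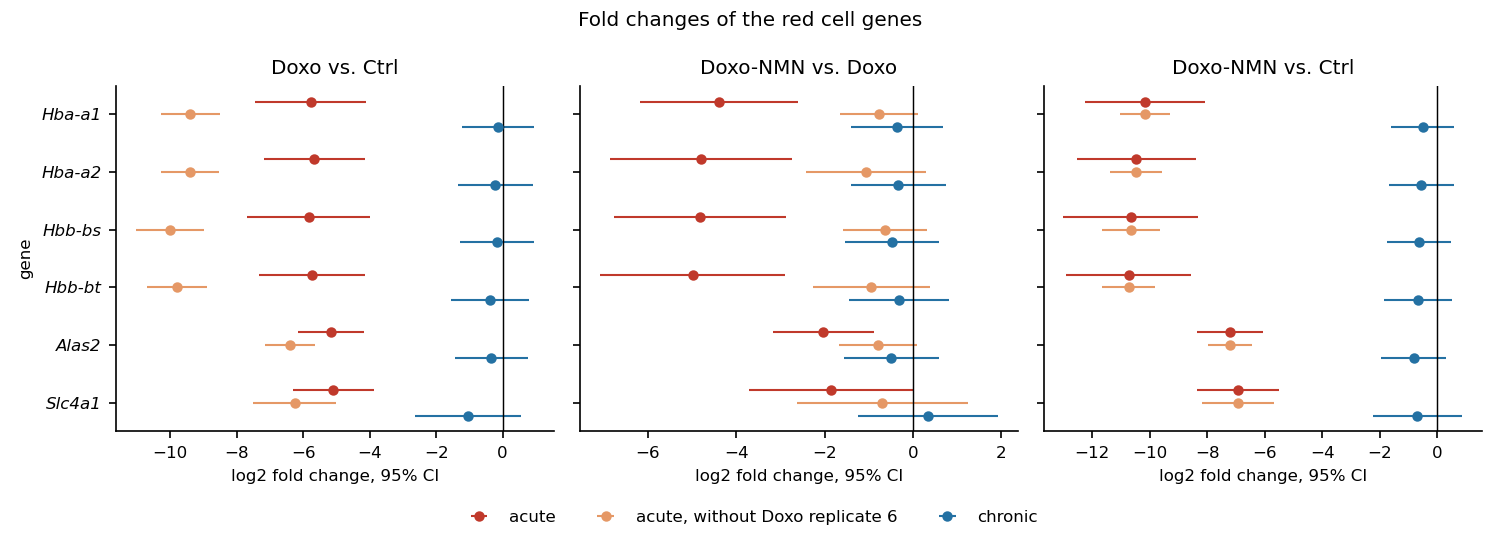
Log2 fold change of each of the 6 genes with its 95% confidence interval, for the 3 comparisons between groups, in the acute hearts, the acute hearts without the library labelled Doxo replicate 6, and the chronic hearts. Leaving out that library moved Hbb-bs from -5.84 to -10.02 in Doxo vs. Ctrl and from -4.82 to -0.64 in Doxo-NMN vs. Doxo, and every chronic interval includes 0.

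Per exon length, the members had a fixed order in acute Ctrl hearts. Median RPKM (CPM per kilobase of exon) was 703 for Hbb-bs, 376 for Hba-a1, 199 for Hbb-bt, 159 for Hba-a2, 11.3 for Alas2 and 0.339 for Slc4a1, and each gene exceeded the next in 14 of 14 hearts. In acute Doxo hearts neighbours in the order were less separated. Hbb-bs (0.903 RPKM) exceeded Hba-a1 (0.699 RPKM) in 9 of 13 hearts, and in Doxo-NMN hearts in 7 of 13. In chronic Ctrl hearts Hbb-bs was also highest (145 RPKM), followed by Hba-a1 (84.9), Hba-a2 (70.4), Hbb-bt (31.5), Alas2 (3.94) and Slc4a1 (0.163). There Hba-a1 and Hba-a2 were in that order in 4 of 5 hearts, and the others in all 5.

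The proportions between the globin transcripts were steady across acute Ctrl hearts although their level was not. The 4 globins took 0.0451% to 0.437% of the counts of a Ctrl library. The ratio of Hba-a1 to Hba-a2 counts was 3.08 ± 0.238 (SD, n = 14), that of Hbb-bs to Hbb-bt 3.87 ± 0.159, and that of beta- to alpha-globin 1.64 ± 0.0626. Chronic Ctrl hearts had medians of 1.43, 5.07 and 1.18 for the same ratios. The tables of the 2 studies were made separately, with different numbers of genes, and the copies share reads, so these ratios are not compared between studies.

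Alas2 counts per 1000 globin counts were higher in all but 1 of the acute Doxo and Doxo-NMN hearts than in any acute Ctrl heart, while Doxo and Doxo-NMN hearts overlapped. The ratio was 24.3 to 29.1 in the 14 Ctrl hearts (median 26.5). In the 12 Doxo hearts other than replicate 6 it was 55.6 to 1313 (median 225), and all 12 lay above the Ctrl range. In the 13 Doxo-NMN hearts it was 51.5 to 4500 (median 313), again all above the Ctrl range. These ratios rest on few counts. Summed over hearts, the 12 Doxo libraries held 219 Alas2 and 802 globin counts (273 per 1000) and the Doxo-NMN libraries 151 Alas2 counts at 266 per 1000. The library labelled Doxo replicate 6 had 26.3 per 1000, inside the Ctrl range. In chronic hearts the medians were 33.8 (Ctrl), 33.1 (Doxo) and 30.1 (Doxo-NMN). Since the ratio uses the values that chose the members, it is given without a test.

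**Figure D3:**
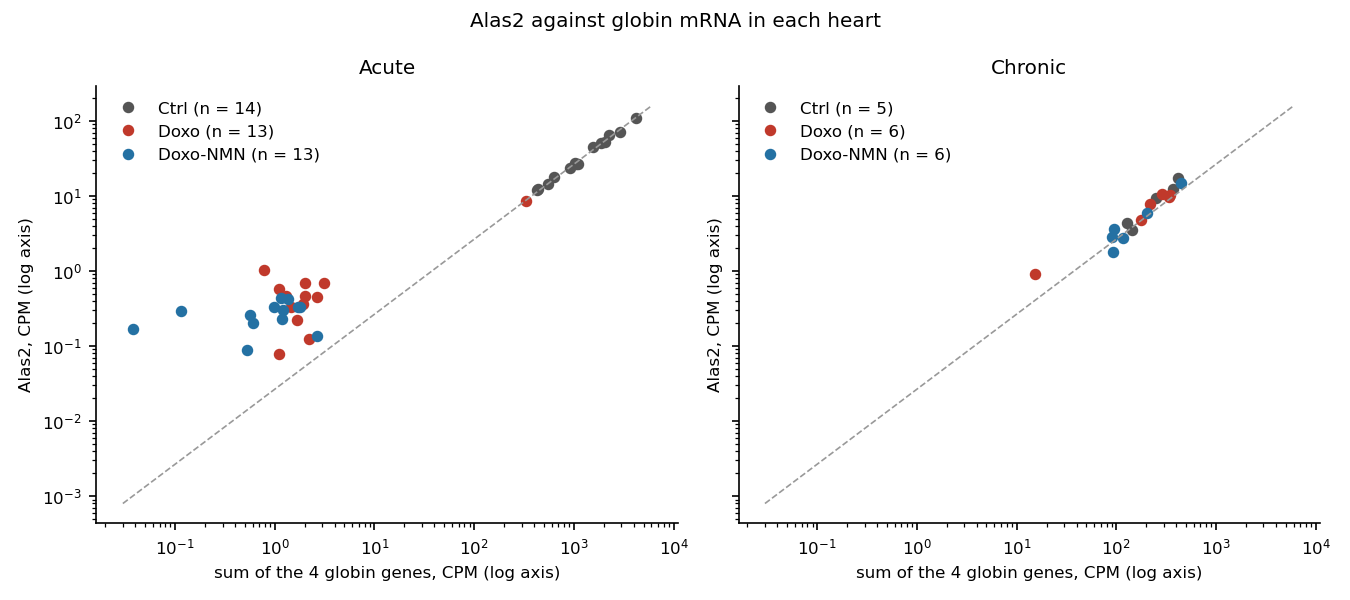
Alas2 level against the summed level of the 4 globin genes in each heart, both in CPM on log axes, with the dashed line at the median acute Ctrl ratio. Acute Ctrl hearts and the library labelled Doxo replicate 6 (not ringed here) lie along the line (26.5 and 26.3 Alas2 counts per 1000 globin counts). The other acute Doxo and Doxo-NMN hearts lie above it at low globin levels.

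Within the 14 acute Ctrl hearts the members varied together. Across the 15 pairs of members, of 34 relations computed, Pearson's r of the log2 levels ran from 0.903 to 0.998 and Spearman's rho from 0.925 to 1. Without the 2 hearts farthest from the median the lowest r was 0.863. Hbb-bs and Alas2, which share no gene family, had r = 0.996 and rho = 0.996. Pairs share a library and its scaling, and the globin copies share reads, so these values are given as a description with no test. Hearts also differed in atrial tissue, seen in Myl4, the atrial myosin light chain. Among the 8 Ctrl hearts with Myl4 over 100 CPM the lowest r of a pair was 0.941, and among the 6 under 100 CPM it was 0.866. The Hbb-bs median was 536 CPM in the former and 648 CPM in the latter.

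The genes most like the members across acute Ctrl hearts, among 12254 genes compared by Pearson's r of log2 CPM, included other genes known from red cells. For Alas2 these included Bpgm (r = 0.980), Ube2l6 (0.973), Isg20 (0.958) and Bnip3l (0.901). For Hbb-bs these included Bpgm (0.978), Ube2l6 (0.975), Isg20 (0.944) and Mkrn1 (0.902). Bpgm makes 2,3-bisphosphoglycerate, which lowers the oxygen affinity of haemoglobin. Acute medians in Ctrl, Doxo and Doxo-NMN hearts were 25.2, 15.5 and 15.6 CPM for Bpgm, 13.1, 2.84 and 5.05 CPM for Ube2l6 and 3.93, 1.47 and 1.72 CPM for Isg20. For Bnip3l they were 63.1, 77.6 and 59.8 CPM and for Mkrn1 28.3, 30.2 and 23.8 CPM. By its median, neither Bnip3l nor Mkrn1 was lower in Doxo than in Ctrl hearts.

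Of 62 further genes on 5 lists of red cell biology (other globins, haem synthesis, membrane, regulators, enzymes and maturation), 42 could be tested in the acute hearts. In Doxo vs. Ctrl 5 were higher and 11 lower, against 14.7% and 15.4% of all tested genes. Their median log2 fold change was -0.15, beside -0.00 over all tested genes. None of the other globins passed the filter on low counts. Doxo-NMN vs. Doxo had 4 higher and 2 lower (8.17% and 8.88% of all genes), and Doxo-NMN vs. Ctrl had 1 higher and 4 lower (3.31% and 3.79%). Without the library labelled Doxo replicate 6, 12 were lower in Doxo vs. Ctrl, the added gene being Ank1. In that fit 17.1% of all 14297 tested genes were lower.

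Haem is made in most cells that have a nucleus, and of the 12 haem synthesis genes tested, 4 were lower in Doxo vs. Ctrl. Alas1, the housekeeping counterpart of Alas2, had medians of 226, 97.7 and 210 CPM in Ctrl, Doxo and Doxo-NMN hearts. It fell by 0.86 on the log2 scale in Doxo vs. Ctrl (SE 0.16, adjusted p = 1.42e-05, edgeR) and rose by 0.70 in Doxo-NMN vs. Doxo (SE 0.16, adjusted p = 0.000564, edgeR). Fech, which inserts iron in the last step of haem synthesis, was not called, with medians of 136, 149 and 138 CPM. Doxo-NMN vs. Ctrl gave -0.17 for Alas1 and was not called (adjusted p = 0.467, edgeR), beside -7.20 for Alas2.

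Of the 11 membrane genes tested, 3 were higher and 2 lower in Doxo vs. Ctrl. The skeleton genes Sptb (0.39) and Ank1 (-0.54) and the water channel Aqp1 (0.04) were not called.

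Of 7 regulators tested, 1 was higher and 2 were lower. Tfrc, the transferrin receptor through which cells take up iron, fell by 0.81 on the log2 scale (SE 0.20, adjusted p = 0.000473, edgeR), and rose by 0.72 in Doxo-NMN vs. Doxo (SE 0.20, adjusted p = 0.00284, edgeR). Epor, the erythropoietin receptor, fell by 0.82 in Doxo vs. Ctrl (SE 0.26, adjusted p = 0.00515, edgeR). Gata1 and Klf1, the nuclear regulators of red cell precursors, were near the floor in Ctrl hearts, with at most 6 and 10 counts a heart, and were not tested. Zfpm1 (-0.34) and Lmo2 (-0.43) were not called.

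Of 12 enzyme and maturation genes tested, 1 was higher and 3 were lower. Bpgm fell by 0.77 (SE 0.13, adjusted p = 1.98e-06, edgeR) and Car2, a carbonic anhydrase, by 0.59 (SE 0.10, adjusted p = 1.41e-06, edgeR). Cat, catalase, rose by 1.04 (SE 0.18, adjusted p = 3.48e-06, edgeR). Car1, the other carbonic anhydrase of red cells, held no count in Ctrl hearts. Prdx2 (0.03) and Bnip3l (0.28) were not called. Of the genes given here as not called, Fech, Sptb, Ank1, Zfpm1, Lmo2 and Bnip3l had an adjusted p under 0.05 (edgeR) but changed by less than 1.5-fold. Without the library labelled Doxo replicate 6, Doxo vs. Ctrl was -0.99 for Alas1, -0.93 for Tfrc, -1.08 for Epor, -0.78 for Bpgm, -0.61 for Car2 and 1.09 for Cat on the log2 scale, and each of these genes was called in the same direction.

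Genes that handle haem and haemoglobin released from red cells were tested as a further list of 10, of which 8 passed the filter. In Doxo vs. Ctrl 2 were higher and 1 lower, beside 14.7% and 15.4% of all tested genes. Hmox1, haem oxygenase 1, which degrades haem and is also induced by oxidative stress, had medians of 8.18, 57.1 and 11.7 CPM. It rose by 3.17 on the log2 scale in Doxo vs. Ctrl (SE 0.36, adjusted p = 1.87e-09, edgeR) and fell by 2.33 in Doxo-NMN vs. Doxo (SE 0.36, adjusted p = 3.13e-06, edgeR). The difference of 0.84 in Doxo-NMN vs. Ctrl was not called (adjusted p = 0.0629, edgeR). In the fit all acute groups share the estimate of the spread. Whether Hmox1 was called here depended on the library labelled Doxo replicate 6 (7.15 CPM), which is in neither group compared. Without it Hmox1 was called higher in Doxo-NMN vs. Ctrl, at the same difference of 0.84 (adjusted p = 0.0359, edgeR), and was 3.28 in Doxo vs. Ctrl and -2.44 in Doxo-NMN vs. Doxo. In the same Doxo-NMN hearts the globin medians were between 0.0753 and 0.465 CPM.

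Markers of other cells of blood and vessels were measured beside the members. The summed level of 12 neutrophil markers was 2.93 CPM (2.02 to 7.21) in Ctrl, 18.3 CPM (3.29 to 373) in Doxo and 10.8 CPM (5.19 to 36.1) in Doxo-NMN hearts, with Ly6g at 0 in every Ctrl heart. All 8 tested neutrophil markers were higher in Doxo vs. Ctrl, where 14.7% of all tested genes were higher and 15.4% lower. Platelet markers had medians of 16, 20.7 and 17.4 CPM, with 1 of 7 higher. B cell markers had 1.51, 0.492 and 0.689 CPM, with 2 of 2 lower in Doxo vs. Ctrl, and endothelial markers 701, 674 and 567.5 CPM, with 1 of 6 lower. Without the library labelled Doxo replicate 6 the Doxo medians were 24.5 (neutrophil), 21 (platelet), 0.429 (B cell) and 666 CPM (endothelial). Then 2 of 8 tested platelet markers were higher in Doxo vs. Ctrl, beside 16.2% of all tested genes. Across Ctrl hearts Hbb-bs and Alas2, the members set against these marker sums, gave no adjusted p under 0.05 (Hbb-bs and neutrophil markers r = -0.10, rho = -0.21, permutation test, adjusted p = 0.779). What part blood content, cell number or RNA per cell has in the members' levels was not tested.

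**Figure D4:**
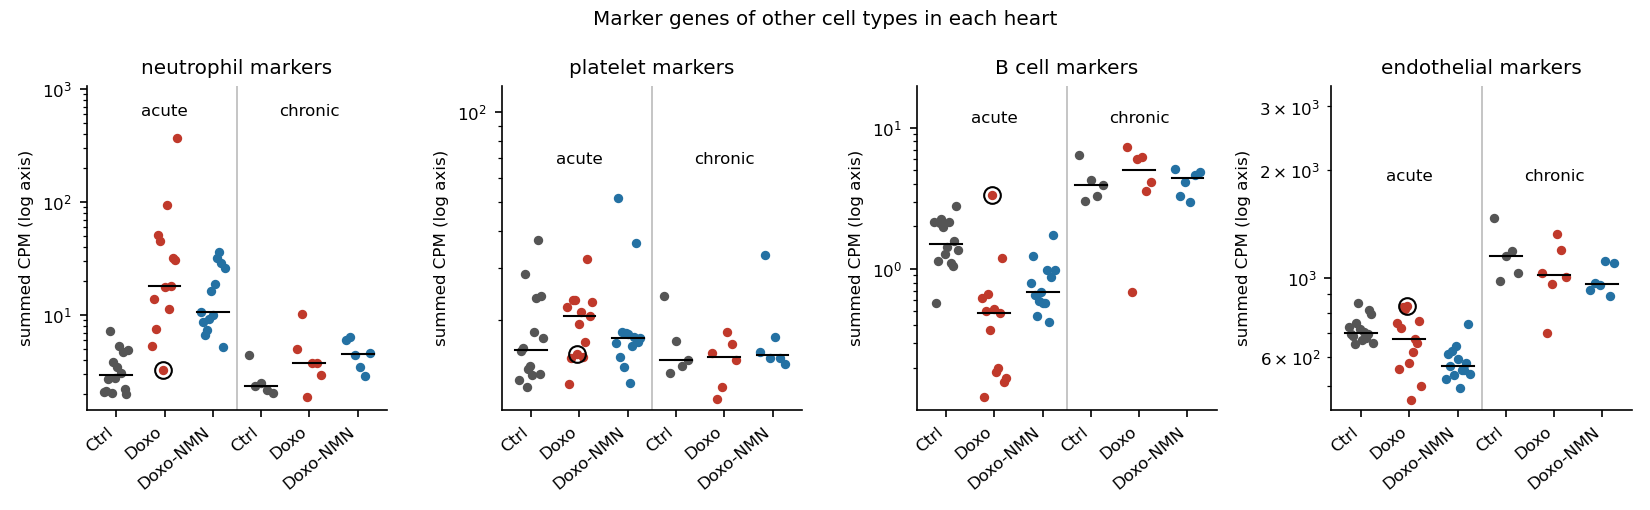
Summed level of neutrophil, platelet, B cell and endothelial markers in each acute and chronic heart, in CPM on log axes, with the library labelled Doxo replicate 6 ringed. Neutrophil markers are higher in acute Doxo hearts (median 18.3 CPM) than in Ctrl hearts (2.93 CPM), while platelet markers overlap between groups.

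In the chronic study, 60 days after the first of 5 smaller doses, no member was called in any comparison. Hbb-bs was at 61.0, 59.9, 169, 112 and 188 CPM in the 5 Ctrl hearts. The 6 Doxo hearts had a lowest, median and highest level of 7.47, 116 and 157 CPM, and the 6 Doxo-NMN hearts 39.6, 45.3 and 192 CPM. The 3 groups overlapped. Hba-a1 was at 43.6, 29.6, 100.3, 68.9 and 111 CPM in Ctrl hearts, with 4.54, 69.8 and 97.8 CPM in Doxo and 26, 32.5 and 126 CPM in Doxo-NMN hearts. Alas2 was at 3.54, 4.31, 12.5, 9.47 and 17.4 CPM in Ctrl hearts, with 0.919, 8.84 and 10.8 CPM in Doxo and 1.82, 3.27 and 14.8 CPM in Doxo-NMN hearts. Slc4a1 had 2, 15, 42, 15 and 35 counts in Ctrl hearts, 0 to 21 in Doxo and 2 to 61 in Doxo-NMN hearts. Hba-a2 and Hbb-bt also overlapped between the groups, with Ctrl medians of 47.0 and 22.1 CPM.

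For Doxo vs. Ctrl the chronic log2 fold changes were -0.15 for Hba-a1 (95% confidence interval -1.24 to 0.95), -0.22 for Hba-a2, -0.16 for Hbb-bs (-1.27 to 0.96), -0.37 for Hbb-bt, -0.34 for Alas2 (-1.45 to 0.77) and -1.04 for Slc4a1 (-2.65 to 0.56), with adjusted p from 0.745 to 0.961 (edgeR). None of the 6 was called, where 0.0602% of the 14960 tested genes were called, and 0 had an unadjusted p under 0.05. Differences within these intervals are not excluded by these hearts. Doxo-NMN vs. Doxo gave -0.36, -0.33, -0.48, -0.31, -0.49 and 0.35 (adjusted p = 0.999 for each, edgeR), with 0 of 6 members called beside 0.00% of genes. Doxo-NMN vs. Ctrl gave -0.50, -0.55, -0.63, -0.68, -0.83 and -0.69 (adjusted p = 0.999 for each, edgeR), again with 0 of 6 beside 0.0401%. In 5 of 6 Doxo-NMN hearts each member lay below the Ctrl median.

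Doxo replicate 2 was the lowest heart of the chronic study for each member, with 16.2 CPM summed over the 6 genes, against 132 to 434 CPM in Ctrl hearts. It also stood apart without the red cell genes. On the Ctrl to Doxo axis, made for the chronic hearts as for the acute hearts, it lay at 1.33. The other chronic Doxo hearts lay between 0.440 and 0.635, and the Ctrl hearts between 0.321 and 0.567. Doxo replicate 2 had 22.3 CPM of Hmox1, 10.3 CPM of summed neutrophil markers and 0.689 CPM of B cell markers. Without it the Doxo vs. Ctrl differences were 0.10 (Hba-a1), 0.03 (Hba-a2), 0.09 (Hbb-bs), -0.13 (Hbb-bt), -0.11 (Alas2) and -0.80 (Slc4a1) on the log2 scale. Of the other red cell genes, 38 were tested in the chronic hearts and 0 were called by edgeR in any comparison, with 2 at an unadjusted p under 0.05 in Doxo vs. Ctrl and 1 in each comparison that involves Doxo-NMN. Across the 17 chronic hearts Hbb-bs and Alas2 had r = 0.955 and rho = 0.951, and Hbb-bs and Hba-a1 r = 0.993 and rho = 0.978. The 3 groups were pooled and pairs share a library and its scaling, so these values are a description with no test.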

How the data were processed

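Poly(A) RNA of heart tissue was sequenced as single-end reads. Per the submitters' processing notes and the study's methods, the authors mapped the reads to mm10 with STAR (2.7.3a in the notes) and made the deposited tables of raw read counts per gene with featureCounts (2.0.0), one table for each study. How reads matching several genes were treated is not given in the sources used here. Groups came from the sample titles. From the counts, genes were filtered with filterByExpr, scaled with TMM and fitted per study over its 3 groups with the quasi-likelihood test of edgeR 4.0.16 in R 4.3.3. Standard errors were derived from the fold change and its F statistic. P-values were adjusted over all tested genes (Benjamini-Hochberg). Genes were called at an adjusted p under 0.05, in the acute study also at 1.5-fold or more. Correlations used log2(CPM + 0.1) and permutation tests (scipy 1.17.1). The self-test on simulated acute counts called 90% of genes lowered 2-fold in Doxo vs. Ctrl. Limma 3.58.1 and DESeq2 1.42.0 served as alternatives, with other filters, thresholds, left-out hearts, hearts split by Myl4 and replicate numbers as a block. Replicate numbers did not pair the hearts. The 6 genes, the gene lists and the rule for named genes (the members, the 3 highest of each list in acute Ctrl hearts, some fixed regulators and markers, and genes most like the members) were chosen with earlier results of these data known. Intervals are 95% confidence intervals. Some genes of the lists are counted in them but not reported here.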

Additional observations from a re-analysis of the deposited data

Results flagged for a closer look

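In the chronic study 1 Doxo-NMN heart, replicate 5, lay far above the other 5 hearts of its group for each member. It had 125.6 CPM of Hba-a1 (next heart 55.0), 86.0 CPM of Hba-a2 (42), 192.1 CPM of Hbb-bs (93.6), 43.2 CPM of Hbb-bt (15.1), 14.8 CPM of Alas2 (5.91) and 2.61 CPM of Slc4a1 (0.647). These are 6 of 18 gene and group combinations tested for a single heart far from the others. The measure was the gap to the next heart over the range of the group, 0.639 to 0.780 here, in CPM and not on a log scale. A chance rate of about 1 in 20 such groups would hold only for normally distributed CPM, which was not checked, so nothing is read from it. The 6 genes vary together, so they amount to 1 heart and not to 6 separate cases. That heart also had 5.68 CPM of Hmox1, 2.91 CPM of summed neutrophil markers, 15 CPM of platelet markers, 4.62 CPM of B cell markers and 887 CPM of endothelial markers. Without it, Doxo-NMN vs. Ctrl was -1.03 (Hba-a1), -1.07 (Hba-a2), -1.16 (Hbb-bs), -1.44 (Hbb-bt), -1.47 (Alas2) and -1.86 (Slc4a1) on the log2 scale, and 0 of 6 members were called by edgeR.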

How the results depend on the processing

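Over 306 alternative values in each of acute Doxo vs. Ctrl and Doxo-NMN vs. Ctrl, every member value was below 0 (-10.11 to -3.99 and -11.55 to -5.75). The members had been picked on these acute groups and the alternatives refit the same hearts, so nothing is read from that sign. No chronic member was called in any alternative, the lowest adjusted p (edgeR, DESeq2 or limma) being 0.236. Other red cell genes lower in acute Doxo-NMN vs. Ctrl numbered 4 of 42 tested. They were 9 of 57 with no filter, 2 of 36 with at least 10 counts in every heart and 9 of 42 by adjusted p alone. Over all tested genes, 540 of 14240, 636 of 21799, 358 of 12215 and 1576 of 14240 were lower in the same order. By adjusted p alone, 19 of the 42 were lower in Doxo vs. Ctrl (11 with the fold). In Doxo-NMN vs. Doxo 14 of the 42 were higher (4 with the fold). Of all 14240 tested genes, 4741 and 3656 were called so by adjusted p alone. Leaving out 1 heart gave 9 to 12, 3 to 5 and 4 to 4 for these counts (Doxo vs. Ctrl lower, Doxo-NMN vs. Doxo higher, Doxo-NMN vs. Ctrl lower), and 0 in the chronic study. Slc4a1 turned sign in acute Doxo-NMN vs. Doxo in hearts with Myl4 over 100 CPM (4.0 against -1.85), and in chronic Doxo-NMN vs. Doxo with limma voom (-0.39) and the replicate block (-0.014, against 0.35). Leaving out 1 chronic heart moved it from -0.81 to 0.62, and Doxo vs. Ctrl from -0.34 to 0.10 (Hba-a1), -0.38 to 0.034 (Hba-a2) and -0.32 to 0.091 (Hbb-bs). The cause was not tested. With the replicate block the counts were 10, 4 and 4, beside 2279, 1321 and 540 of all 14240 tested genes, and 0 in the chronic study. Same-numbered hearts correlated from -0.62 to 0.58 (acute) and -0.25 to 0.41 (chronic), so the numbers do not pair hearts. Depth limits Slc4a1 most, with 8 counts in all acute Doxo-NMN hearts.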
